A study of Mus musculus with 8 samples.

Results

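The genes described here encode the proteasome, its regulatory particle and the factors that activate, inhibit or help to assemble it. They were listed by gene symbol, with earlier results of these data known. The list holds the 7 subunits of the alpha ring and the 7 subunits of the beta ring. It also holds 6 ATPases of the regulatory particle base and 11 other subunits of the regulatory particle. A last group of 6 holds the activators Psme1 to Psme4, the inhibitor Psmf1 and the maturation factor Pomp. All 37 symbols were found in the deposited table, each in 1 row, among 24625 rows and 19836 distinct symbols. Messenger RNA was measured in neutrophils taken from mouse lungs, with 4 samples from mice given Streptococcus pneumoniae (SP), a common bacterial cause of pneumonia, and 4 from mice given phosphate-buffered saline (PBS), each on its own Affymetrix Mouse Gene 1.1 ST array. All mice were wild type (WT) and 6 to 12 weeks old by the labels. The methods give a narrower age range within this, the C57BL/6J strain, colonies raised from purchased adult females, and groups matched for age and sex. Both groups were instilled intratracheally on the left side with 2.3 µl for each g of weight, and lungs were taken 24 h later. Cells were captured from lung digests with an antibody to Ly6G, a surface protein of mouse neutrophils, and magnetic beads. The methods describe a purity check of the isolated cells for the pneumonia samples only. The labels number the samples 1 to 4 in each group. A legend of the study describes a sample as taken from a mouse, which the labels do not state.

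The proteasome is the main protease of the cytoplasm and nucleus for proteins tagged with ubiquitin. Its core particle is a barrel of outer alpha rings, which gate the entrance, and inner beta rings, which carry the catalytic sites, and the regulatory particle that caps it binds ubiquitin chains, removes them and threads the protein inwards with its ATPases. Interferons are known to replace the 3 catalytic beta subunits Psmb5, Psmb6 and Psmb7 by Psmb8, Psmb9 and Psmb10, which form the immunoproteasome, and to raise the activator made of Psme1 and Psme2, which shapes the peptides cut for display on MHC class I.

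Expression of 17 of the 37 proteasome genes was higher and that of 2 was lower in lung neutrophils during pneumonia (limma, adjusted p up to 0.05 over all rows). The 17 make up 45.9% of the genes, beside 21.5% of all rows, and the 2 make up 5.41%, beside 22.6% of all rows. All 37 genes were bright, with values above the array median in every sample. Among the 12313 rows with a mean at or above the median of all rows, 24.3% were called higher and 36.0% lower. A rise of at least 2-fold was found for 3 genes, Psme2 (3.44-fold), Psma5 (2.76-fold) and Psme1 (2.25-fold), which is 8.11% of the genes beside 6.37% of all rows. No gene fell 2-fold, beside 11.3% of all rows. All 4 SP values lay above all 4 PBS values for 19 genes (51.4%, beside 27.2% of all rows) and below them for 1, Psmb3 (2.7%, beside 21.8%). The median difference, SP minus PBS, was 0.28 log2 units over the 37 genes, with a range of -0.50 to 1.78, and 0.10 over all rows. In samples of many cells, fewer cells of a type and less RNA per cell cannot be told apart.

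**Figure D1:**
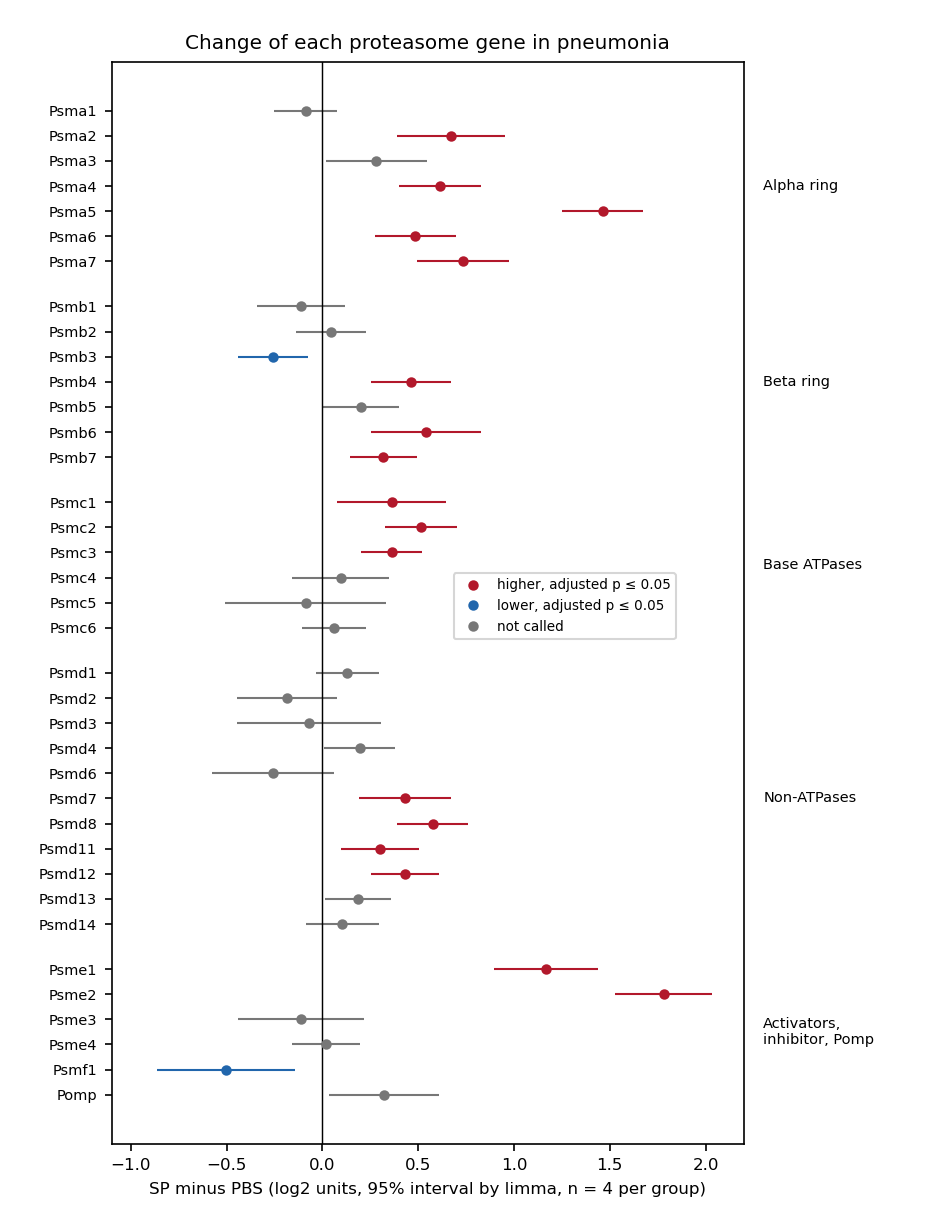
Difference of each of the 37 proteasome genes between SP and PBS samples in log2 units (horizontal axis), grouped by part of the proteasome, with the 95% interval by limma (n = 4 per group). Red points (17 genes) were called higher, blue points (2 genes) lower, and grey points (18 genes) were not called. Psme2, Psma5 and Psme1 lie above 1 log2 unit.

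Most of these differences were smaller than a doubling, so the scaling of the arrays bears on them. The medians of the SP arrays were on average 0.28 log2 units below those of the PBS arrays. When each array was centred on its own median, 28 of the 37 genes were higher and 0 lower, beside 57.7% and 16.4% of all rows, and the median difference became 0.56 against 0.38 for all rows. After another quantile normalization, which makes the arrays share 1 distribution, 11 were higher and 3 lower, beside 19.6% and 22.0% of all rows, and the median difference was 0.18 against 0.016. The difference was positive for 28 of the 37 genes as deposited, for 36 with centred arrays and for 23 after the quantile normalization. Of the 19 called genes, 10 kept their call under each of the 15 alternatives tried. These were Psma2, Psma4, Psma5, Psma7, Psmc2, Psmc3, Psmd8, Psmd12, Psme1 and Psme2, all of them higher in SP.

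**Figure D2:**
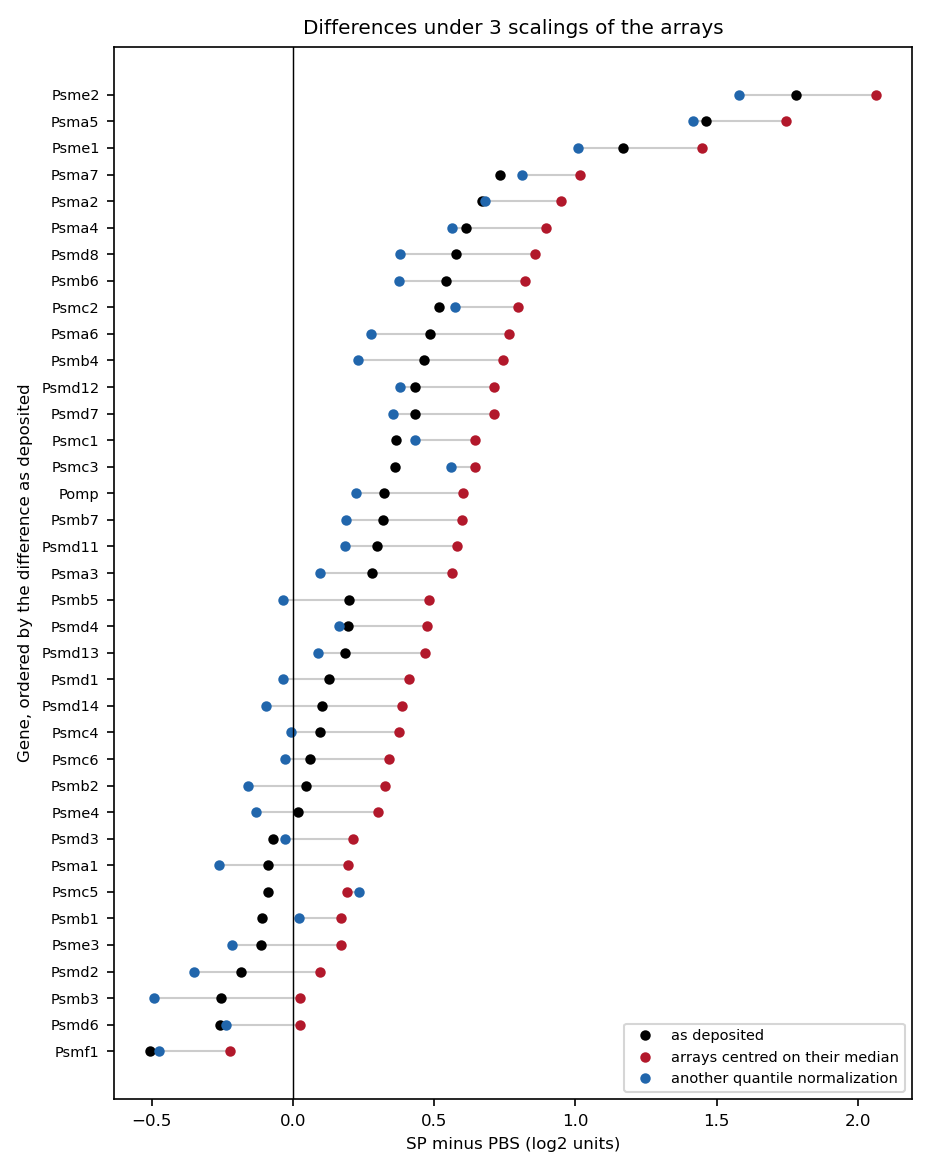
Difference between SP and PBS samples in log2 units (horizontal axis) for the 37 genes, ordered by the difference as deposited. Black points are values as deposited, red points with arrays centred on their median and blue points after another quantile normalization. Psme2, Psma5 and Psme1 stay at the top under all 3 scalings, and genes in the lower part cross 0.

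Promoter sequences are shown for the 3 genes that rose at least 2-fold and for a pair of catalytic subunits, because binding sites of interferon-activated and stress-activated factors are known at promoters of this kind. RefSeq windows of the assembly GRCm38.p6, which reach from 250 bases before to 50 bases after the annotated transcription start, were on hand for 31 of the 37 genes. The stretches printed here run 5′ to 3′ from 130 bases before the start to 20 bases after it, and capitals mark a match to a searched motif. They lie at chr3:108256796-108256945 (plus strand), chr14:54617976-54618125 (minus strand), chr11:70525227-70525376 (plus strand), chr14:55578364-55578513 (plus strand) and chr14:55591082-55591231 (minus strand).
Psma5: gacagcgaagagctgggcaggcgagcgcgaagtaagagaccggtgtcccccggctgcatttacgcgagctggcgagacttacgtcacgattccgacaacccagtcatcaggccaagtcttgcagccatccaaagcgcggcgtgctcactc
Psmb5: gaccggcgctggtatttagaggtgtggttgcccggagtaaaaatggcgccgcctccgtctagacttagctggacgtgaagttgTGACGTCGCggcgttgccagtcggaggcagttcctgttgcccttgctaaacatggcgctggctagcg
Psmb6: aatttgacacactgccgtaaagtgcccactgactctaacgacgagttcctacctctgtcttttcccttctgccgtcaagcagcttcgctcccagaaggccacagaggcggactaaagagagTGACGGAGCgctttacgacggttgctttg
Psme1: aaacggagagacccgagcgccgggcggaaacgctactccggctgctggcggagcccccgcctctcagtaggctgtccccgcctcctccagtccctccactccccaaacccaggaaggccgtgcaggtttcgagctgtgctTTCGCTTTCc
Psme2: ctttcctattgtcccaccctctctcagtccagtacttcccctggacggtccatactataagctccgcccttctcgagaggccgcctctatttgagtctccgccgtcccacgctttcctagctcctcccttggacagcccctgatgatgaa
The capitals in Psmb5 (from -47 to -39, counted from the start) and Psmb6 (from -9 to -1) match TGACNNNGC, the core of the antioxidant response element, to which the Nfe2l family of factors binds. The capitals in Psme1 (from 11 to 19) match GAAANNGAA, the core of the interferon-stimulated response element, read on the opposite strand. No match to any of the 4 searched motifs stood in the windows of Psma5 or Psme2.

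Windows were searched on both strands. The core of the interferon-stimulated response element was found in 6 of the 31 genes (19.4%), Pomp, Psmb3, Psmb4, Psmc2, Psmd4 and Psme1, and in 9.76% of all 27025 genes with a window. The antioxidant response element core was found in 5 genes (16.1%), Psmb5, Psmb6, Psmc6, Psmd12 and Psme4, and in 14.0% of all genes. CCAAT, a common promoter box, was found in 11 genes (35.5%) and in 41.1% of all genes. TTCNNNGAA, the site of STAT factors, was found in 1 gene, Psmd2 (3.23%), and in 9.55% of all genes. Outside the 37 genes, Psmb8 had a match to TTCNNNGAA (from -97 to -89) and Psmb9 a CCAAT box. Neither had the core of the interferon-stimulated response element. Of the 6 genes with the interferon-type core, Psme1, Psmb4 and Psmc2 were called higher and Psmb3 lower. Pomp and Psmd4 were not called. Over all 37 genes, 45.9% were called higher and 5.41% lower, beside 21.5% and 22.6% of all rows. A link between this motif and the change of a gene was not tested. A match of these letters is a description of the window and not a site shown to be bound.

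The alpha ring, whose subunits form the gate of the barrel, had the highest median difference of the 5 structural groups, 0.61 log2 units (0.90 with centred arrays and 0.56 after the quantile normalization). Expression of 5 of its 7 genes was higher and none was lower, beside 21.5% and 22.6% of all rows. In those 5 all 4 SP values lay above all 4 PBS values, as in 27.2% of all rows. Centring the arrays gave 6 higher and 0 lower, beside 57.7% and 16.4% of all rows. The quantile normalization gave 4 and 1, beside 19.6% and 22.0%. Psma5 read 9.06, 9.13, 9.04 and 8.83 log2 units in PBS replicates 1 to 4 and 10.55, 10.44, 10.57 and 10.34 in SP replicates 1 to 4. The lowest SP value was thus more than 1 log2 unit above the highest PBS value. Psma5 rose 2.76-fold, the mean going from 9.01 ± 0.13 to 10.48 ± 0.11 (SD, n = 4; limma, adjusted p = 1.46e-05). Psma7 followed, with 8.48, 8.82, 8.51 and 8.56 in PBS and 9.43, 9.45, 9.27 and 9.16 in SP. It rose 1.66-fold (adjusted p = 0.000835 by limma), and every SP value exceeded every PBS value. Psma2 rose 1.59-fold (adjusted p = 0.00293), Psma4 1.53-fold (0.00114) and Psma6 1.40-fold (0.00346). The call of Psma6 was lost after the quantile normalization. Psma1 had the smallest difference of the ring, -0.09 log2 units (95% interval -0.25 to 0.08), with 10.72, 10.81, 10.75 and 10.83 in PBS and 10.77, 10.66, 10.59 and 10.75 in SP. It was not called as deposited, was called lower after the quantile normalization (-0.26, adjusted p = 0.0327) and had a difference of 0.19 with centred arrays. Psma3 was not called either (0.28, adjusted p = 0.0766). It was called higher with array weights (0.0098), with centred arrays (0.0028) and without PBS replicate 2 (0.0118), and under no other alternative.

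The beta ring, which holds the proteolytic sites, gave 3 higher genes, 1 lower gene and 3 that were not called. The shares over all rows were 21.5% higher and 22.6% lower. Centring the arrays gave 5 higher and 0 lower, beside 57.7% and 16.4% of all rows. The quantile normalization gave 0 and 1, beside 19.6% and 22.0%. The median difference was 0.20 log2 units (0.48 with centred arrays and 0.023 after the quantile normalization). Psmb6, the caspase-like subunit, read 10.23, 10.58, 10.10 and 10.01 in PBS and 10.78, 10.82, 10.66 and 10.82 in SP. Its groups did not overlap, although PBS replicate 2 came close to the SP samples. Psmb6 rose 1.46-fold (0.54 log2 units, 95% interval 0.26 to 0.83, adjusted p = 0.00888 by limma). Psmb4, a subunit without a catalytic site, read 11.37, 11.12, 11.36 and 11.11 in PBS and 11.61, 11.72, 11.79 and 11.71 in SP. It rose 1.38-fold (adjusted p = 0.00403), with no overlap. Psmb7, the trypsin-like subunit, read 9.94, 10.06, 9.96 and 9.88 in PBS and 10.41, 10.26, 10.24 and 10.21 in SP. It rose 1.25-fold (adjusted p = 0.0104), again with no overlap. After the quantile normalization the 3 calls of Psmb4, Psmb6 and Psmb7 were lost. Psmb5, the chymotrypsin-like subunit, read 11.56, 11.51, 11.34 and 11.68 in PBS and 11.72, 11.74, 11.65 and 11.77 in SP. Its groups overlapped, and a difference of 0.20 log2 units was not called (adjusted p = 0.0894), turning to -0.034 after the quantile normalization. Psmb2, also without a catalytic site, read 11.12, 10.99, 11.02 and 11.06 in PBS and 11.07, 11.06, 10.98 and 11.25 in SP. Its difference of 0.04 (95% interval -0.14 to 0.23) was not called and was -0.16 after the quantile normalization. Psmb3, another structural subunit, fell by 0.26 log2 units (1.19-fold, adjusted p = 0.0312). That call was narrow, since it was lost without any 1 of PBS replicates 1, 2 and 4 and SP replicates 1 and 2 (adjusted p = 0.0538 to 0.0871) and with the replicate block (0.0733), and the difference was 0.025 with centred arrays. Psmb1 differed by -0.11 log2 units and was not called.

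The inducible subunits that take the catalytic places were compared with the constitutive ones. Psmb8, which takes the place of Psmb5, read 8.68, 8.18, 8.39 and 8.28 in PBS and 11.59, 11.58, 11.10 and 11.12 in SP. It rose 7.83-fold (adjusted p = 7.82e-06 by limma). Psmb9, which takes the place of Psmb6, read 9.69, 8.49, 9.54 and 9.24 in PBS and 11.40, 11.64, 10.80 and 11.14 in SP. PBS replicate 2 was the lowest of these samples, and all SP values were above all PBS values. Psmb9 rose 4.01-fold (adjusted p = 0.000719). Psmb10, which takes the place of Psmb7, read 9.03, 8.69, 8.48 and 8.76 in PBS and 11.16, 11.31, 10.69 and 10.85 in SP. It rose 4.80-fold (adjusted p = 2.79e-05), with no overlap. All 3 kept their call under each of the 15 alternatives. Because a shift of a whole array cancels in a difference within it, each inducible gene was also set against its constitutive partner in the same sample. The difference Psmb8 minus Psmb5 was greater in SP than in PBS by 2.77 log2 units (6.82-fold), Psmb10 minus Psmb7 by 1.95 (3.85-fold) and Psmb9 minus Psmb6 by 1.46 (2.76-fold). In each pair no SP sample overlapped a PBS sample, and the two-sided exact permutation p was 0.0286, the smallest that 70 arrangements allow, and 0.0286 after adjustment over the 3 pairs. Without any 1 sample the changes ranged from 2.68 to 2.86, from 1.84 to 2.05 and from 1.10 to 1.61, and after the quantile normalization they were 3.02, 2.07 and 1.57. They show unequal change of the partners and say nothing of which partner was more abundant. Psmb11, the catalytic subunit of the thymus, stayed dim in all samples (4.29 to 4.76) and was not called (adjusted p = 0.0575).

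**Figure D3:**
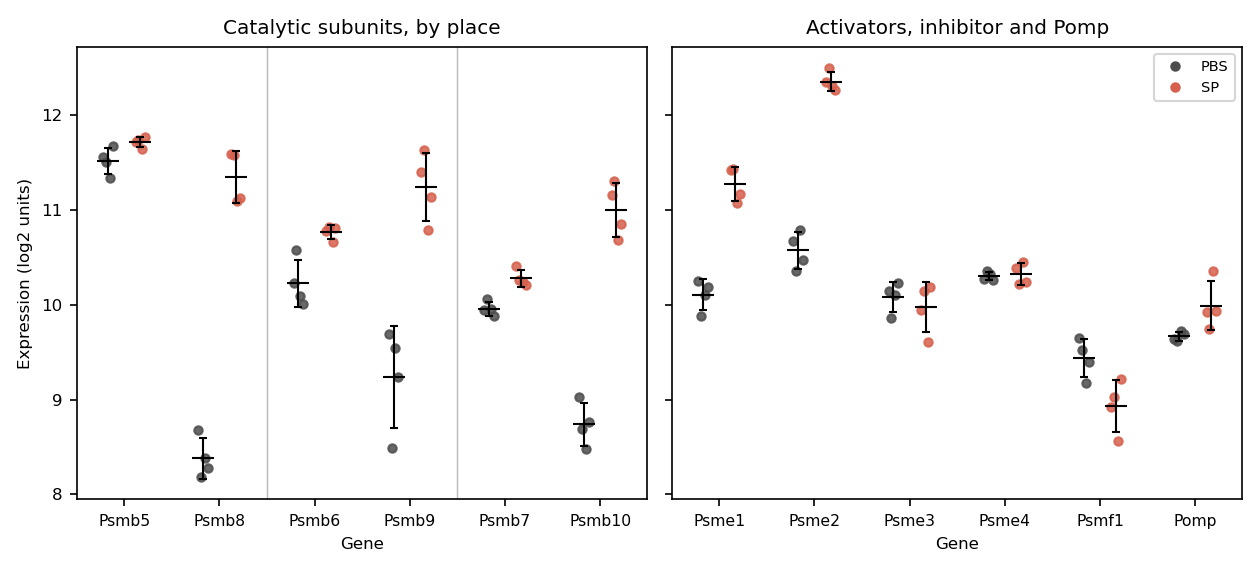
Expression in log2 units (vertical axis) of the constitutive and inducible catalytic subunits, side by side for each catalytic place (left), and of the activators, the inhibitor and Pomp (right). Each point is a sample, grey for PBS and red for SP, and bars give the mean and SD (n = 4). Psmb8, Psmb9, Psmb10, Psme1 and Psme2 separate widely between the groups, while Psmb5, Psme3 and Psme4 overlap.

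The ATPases of the base form the ring that unfolds the substrate. Expression of 3 of the 6 genes was higher and none was lower, beside 21.5% and 22.6% of all rows. Centring the arrays gave 5 higher and 0 lower, beside 57.7% and 16.4% of all rows. The quantile normalization gave 3 and 0, beside 19.6% and 22.0%. The median difference was 0.23 log2 units (0.51 with centred arrays and 0.33 after the quantile normalization). Psmc2 read 8.87, 8.80, 8.91 and 8.69 in PBS and 9.43, 9.39, 9.22 and 9.28 in SP. It rose 1.43-fold (0.52 log2 units, 95% interval 0.33 to 0.70, adjusted p = 0.0014 by limma), with no overlap of the groups. Psmc3 rose 1.28-fold (adjusted p = 0.00371), also with no overlap. Psmc1 was more variable, with 8.74, 9.01, 8.89 and 8.69 in PBS and 9.28, 9.15, 8.92 and 9.42 in SP. Its SP replicate 3 lay within the PBS range. The rise of 1.29-fold was called narrowly (adjusted p = 0.0437), and neither the methods' t-test (0.0650), the replicate block (0.0934) nor fits that left out PBS replicate 1, 3 or 4 or SP replicate 1, 2 or 4 (0.0675 to 0.110) called it. Psmc6 had the smallest difference, with 9.84, 9.71, 9.82 and 9.90 in PBS and 9.78, 9.92, 9.88 and 9.92 in SP. Groups overlapped, and the difference was 0.06 log2 units (95% interval -0.11 to 0.23) and -0.028 after the quantile normalization. Psmc4 (0.09, 95% interval -0.16 to 0.35) was not called. Psmc5 differed by -0.09 (95% interval -0.51 to 0.33), and by 0.11 without SP replicate 3, in which it read 7.37 against 8.09 to 8.19 in the other SP samples.

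The 11 other subunits of the regulatory particle build its lid and scaffold and carry its ubiquitin receptor and deubiquitinase. Of these, 4 were higher, none was lower and 7 were not called, beside 21.5% higher and 22.6% lower over all rows. Centring the arrays gave 8 higher and 0 lower, beside 57.7% and 16.4% of all rows. The quantile normalization gave 2 and 0, beside 19.6% and 22.0%. The median difference was 0.18 log2 units (0.47 with centred arrays and 0.087 after the quantile normalization). Psmd8, a lid subunit, read 10.60, 10.64, 10.63 and 10.72 in PBS and 11.34, 11.17, 11.31 and 11.08 in SP. It rose 1.49-fold (adjusted p = 0.000761 by limma), and the groups were well apart. Psmd12, also of the lid, read 9.34, 9.40, 9.34 and 9.48 in PBS and 9.88, 9.83, 9.67 and 9.90 in SP. It rose 1.35-fold (adjusted p = 0.00269), with no overlap. Psmd7, the lid partner of the deubiquitinase, rose 1.35-fold (adjusted p = 0.0118), and Psmd11, another lid subunit, rose 1.23-fold (0.0267). The call of Psmd11 was lost without PBS replicate 1, 3 or 4 (0.0561 to 0.0706) and with the replicate block (0.0735), and the calls of both were lost after the quantile normalization. Psmd3 had the smallest difference, with 9.07, 9.27, 9.11 and 9.35 in PBS and 9.22, 9.12, 8.69 and 9.50 in SP. Its difference was -0.07 log2 units (95% interval -0.44 to 0.31), and the SP samples enclosed the PBS range. Psmd14, the deubiquitinase, was not called (0.10, 95% interval -0.09 to 0.30), nor was Psmd4, a ubiquitin receptor (0.19, 95% interval 0.01 to 0.38, adjusted p = 0.0791). Psmd4 was called higher with array weights (0.0127), with centred arrays (0.00367) and without SP replicate 3 (0.0439), and under no other alternative. The scaffold subunits Psmd1 (0.13) and Psmd2 (-0.19) were not called, and the difference of Psmd2 was 0.096 with centred arrays. Psmd13 (0.18) was not called, with no overlap between groups. The methods' t-test (0.0410), array weights (0.0306) and centred arrays (0.00388) called it higher, and no other alternative did. Psmd6 (-0.26) was not called with all samples, and was called lower without SP replicate 4 (-0.39, adjusted p = 0.0137).

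Among the 6 activators and other factors, both subunits of the interferon-inducible activator rose, while the inhibitor fell. Psme2 read 10.67, 10.36, 10.79 and 10.48 in PBS and 12.35, 12.51, 12.31 and 12.27 in SP. Every SP value was more than 1 log2 unit above every PBS value. Psme2 rose 3.44-fold, the mean going from 10.58 ± 0.19 to 12.36 ± 0.10 (SD, n = 4; limma, adjusted p = 1.38e-05), the largest difference of the 37 genes as deposited. A retrogene copy, Psme2b, is a separate row of the table, was 3.97-fold higher (adjusted p = 1.86e-05), and is so similar in sequence that signal of the 2 genes may not be separable. Psme1, the partner of Psme2 in the same ring, read 10.26, 9.89, 10.11 and 10.19 in PBS and 11.42, 11.44, 11.08 and 11.17 in SP. It rose 2.25-fold, the mean going from 10.11 ± 0.16 to 11.28 ± 0.18 (SD, n = 4) with no overlap (limma, adjusted p = 0.000134). Psme3, a nuclear activator of the same family, read 10.14, 9.86, 10.11 and 10.24 in PBS and 9.95, 10.15, 9.61 and 10.19 in SP. The groups overlapped, and the difference was -0.11 log2 units (95% interval -0.44 to 0.22) and 0.17 with centred arrays. Psme4, an activator of another family, read 10.27, 10.36, 10.33 and 10.27 in PBS and 10.39, 10.22, 10.45 and 10.24 in SP. Its difference was 0.02 (95% interval -0.16 to 0.20) and -0.13 after the quantile normalization.

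Psmf1, known as an inhibitor of the core particle in vitro, read 9.65, 9.53, 9.17 and 9.40 in PBS and 8.93, 9.03, 8.56 and 9.22 in SP. The highest SP value exceeded the lowest PBS value. Psmf1 was 1.42-fold lower (-0.50 log2 units, 95% interval -0.86 to -0.14, adjusted p = 0.0317 by limma). It was not called by the methods' t-test (0.0585), by the fit with centred arrays (-0.22, 0.155), or in fits that left out PBS replicate 1, 2 or 4 or SP replicate 1 (0.0619 to 0.0873). Pomp, which guides the beta subunits during assembly of the core, read 9.64, 9.62, 9.73 and 9.69 in PBS and 9.93, 9.75, 10.35 and 9.93 in SP. All SP values lay above all PBS values, but SP replicate 3 was far above the others. The difference of 0.32 (95% interval 0.03 to 0.61) was not called (adjusted p = 0.0670), and it was called without SP replicate 2 (0.40, 0.0358), with centred arrays (0.60, 0.00707) and with array weights (0.21, 0.0441). Without SP replicate 3 it was 0.20 and not called.

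Genes that act before or after the proteasome were read from lists, whose counts stand beside 21.5% higher and 22.6% lower over all rows as deposited, 57.7% and 16.4% with centred arrays, and 19.6% and 22.0% after the quantile normalization. Of 10 genes of peptide handling, 5 were higher and 2 lower, with a median difference of 0.40 log2 units against 0.10 for all rows (6 and 1 with centred arrays, 5 and 2 after the quantile normalization). The peptide transporter genes Tap1 (6.38-fold, adjusted p = 5.83e-05 by limma) and Tap2 (5.05-fold, 5.70e-05) and the trimming peptidase Erap1 (3.45-fold, 0.000488) had the largest rises of the list. Of 7 assembly chaperones with a row, 1 was higher and 3 were lower as deposited, and 3 were higher and 2 lower under both other scalings. Psmg2, a chaperone of the alpha ring, was 2.48-fold lower (adjusted p = 0.000388). Psmd5, a chaperone of the base, was 1.58-fold lower (0.00188), and Psmd10, also of the base, was 1.62-fold higher (0.00295). Of 12 ubiquitin receptors and factors of the Vcp segregase, which extracts tagged proteins, 2 were higher and 4 were lower as deposited and after the quantile normalization, but 5 were higher and 2 lower with centred arrays. The median difference was -0.26 (0.021 with centred arrays). Faf1 (1.74-fold, 0.00136), Ubqln2 (1.5-fold, 0.00941) and Nsfl1c (1.38-fold, 0.0107) were lower. The call of Ubqln2 was lost after the quantile normalization (-0.21, 0.106), and that of Nsfl1c with centred arrays (-0.18, 0.142).

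Of 7 genes of ubiquitin and its activating enzymes, 1 was higher and 0 lower as deposited, 5 and 0 with centred arrays, and 1 and 1 after the quantile normalization. Uba7, the activating enzyme of the ubiquitin-like protein Isg15, was 2.61-fold higher (adjusted p = 3.21e-05 by limma). Of 11 further subunits and bound proteins, 1 was higher, Zfand5 (1.52-fold, 0.0129), an activator of the proteasome, and 1 was lower, the bound deubiquitinase Usp14 (1.43-fold, 0.00981). With centred arrays 7 of these were higher and 0 lower, Usp14 no longer being called (-0.24, 0.0812), and after the quantile normalization 2 were higher and 1 lower. Factors that control proteasome genes were compared last. Nfe2l1, the transcription factor that raises proteasome genes when the protease is blocked, was 1.36-fold higher (adjusted p = 0.0253), and this call was lost under 7 of the 15 alternatives. Its relative Nfe2l2 was 1.29-fold higher (0.0451), a call lost under 9 of them. Ngly1, the deglycosylating enzyme that processes Nfe2l1, was 1.65-fold lower (0.00226). The other 2 genes of this list of 5 were not called. With centred arrays 4 of the 5 were higher and 1 lower, and after the quantile normalization 0 were higher and 1 lower.

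Across samples, the mean over the 37 genes lay between 9.86 and 9.92 log2 units in PBS and between 10.10 and 10.25 in SP. SP replicate 3 had the lowest value of the 4 SP samples in 20 of the 37 genes, and SP replicate 4 the highest in 18. Without SP replicate 3, 18 genes were called higher and 2 lower, and the median difference was 0.23. The SD within a group ranged from 0.05 to 0.25 in PBS (Psme4 and Psmb6) and from 0.04 to 0.39 in SP (Psma3 and Psmc5). Arrays of 1 group correlated over all rows at 0.970 to 0.997, and no pair of arrays held identical values.

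**Figure D4:**
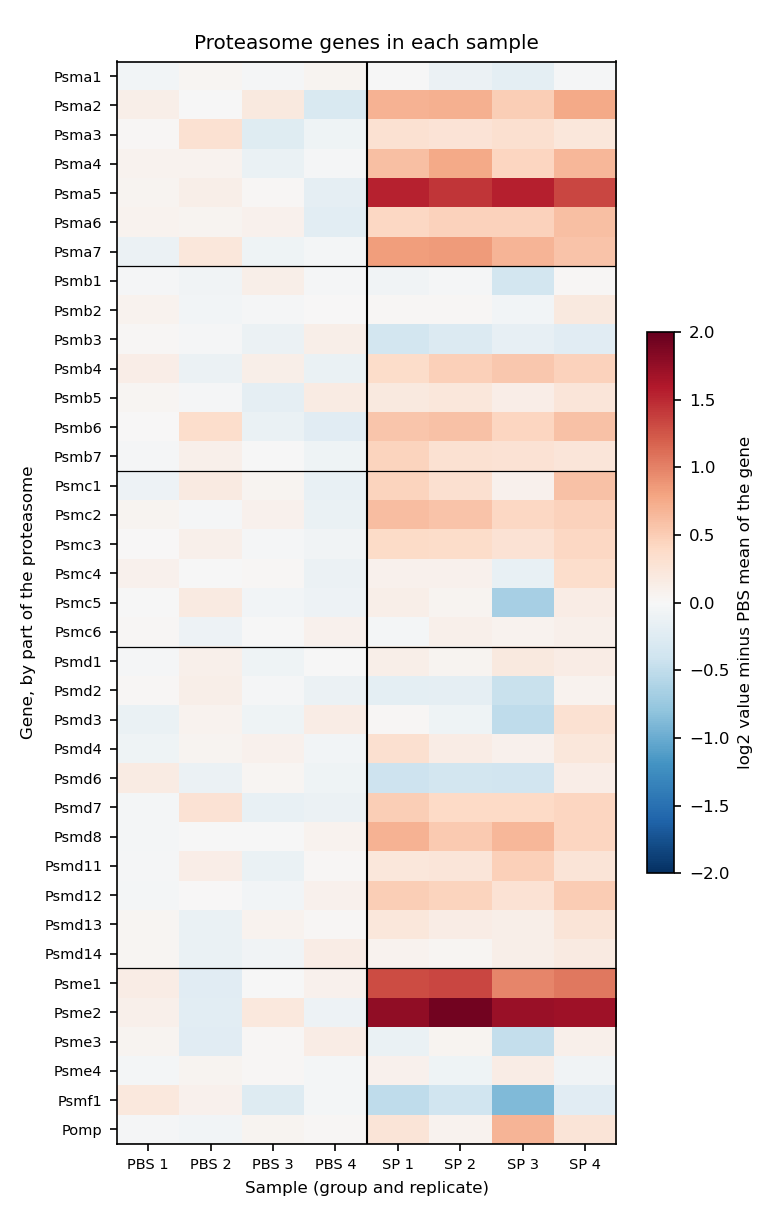
Value of each of the 37 genes in each sample as the difference from the PBS mean of the gene (colour, log2 units), with genes by part of the proteasome (vertical axis) and samples by group and replicate (horizontal axis). Psma5, Psme1 and Psme2 are red in all 4 SP samples, and SP replicate 3 is blue for Psmf1, Psmc5, Psmd2, Psmd3 and Psme3, among others.

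Markers of neutrophils and of other lung cells were counted too. Their counts stand beside 21.5% higher and 22.6% lower over all rows as deposited. Among the rows with a mean at or above the median of all rows, the shares were 24.3% and 36.0%. With centred arrays 57.7% and 16.4% of all rows were called, and after the quantile normalization 19.6% and 22.0%. Of 9 neutrophil markers, 3 were lower and none was higher as deposited, 0 were lower with centred arrays and 7 after the quantile normalization. The mean of the neutrophil markers was 12.12 to 12.37 log2 units in PBS and 11.61 to 12.69 in SP. No row was matched to Ly6g itself, whose mRNA the methods report as high in all samples. All 6 ciliated cell markers were lower (list mean 9.57 to 10.36 in PBS and 6.66 to 7.51 in SP). All 4 club cell markers were lower (12.88 to 13.27 and 10.78 to 11.52), as were all 6 of alveolar type 2 cells (12.27 to 12.76 and 10.25 to 11.70). Of 5 markers of alveolar type 1 cells 4 were lower (9.85 to 10.70 and 8.27 to 9.32), of 6 of endothelium 5 were lower (10.71 to 11.68 and 9.16 to 10.17), and of 6 of fibroblasts 2 were lower (8.69 to 9.55 and 7.6 to 9.71). All 4 B cell markers were lower (8.52 to 9.52 and 6.27 to 7.75), and of 5 alveolar macrophage markers 3 were lower and 1 was higher (8.01 to 8.71 and 6.84 to 7.75). Of 5 markers of monocytes and dendritic cells 2 were higher, Ccr2 and Itgae (list mean 6.56 to 6.83 and 6.94 to 7.37). By flow cytometry, the study also reports CD103, the surface protein encoded by Itgae, as higher on lung neutrophils in pneumonia. Of 5 markers of T and NK cells 1 was higher (5.29 to 5.75 and 5.47 to 6.21). Neither of 2 erythroid markers was called (4.53 to 6.09 and 4.43 to 4.63). Some counts changed under the other scalings. With centred arrays, 4 of 6 alveolar type 2 markers were lower. Higher with centred arrays were 3 of 5 monocyte and dendritic cell markers and 4 of 5 T and NK cell markers. The same held for 1 alveolar type 1 marker and 1 fibroblast marker. After the quantile normalization, 1 monocyte and dendritic cell marker was lower, and 1 fibroblast marker and 2 T and NK cell markers were higher. The higher call of an alveolar macrophage marker was then lost. The part of these cells in the proteasome results was not tested.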

How the data were processed

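Messenger RNA of 8 samples was measured on Affymetrix arrays. According to the labels and methods, the authors treated the signals by robust multi-array averaging (RMA), with background correction, quantile normalization and median polish, and deposited log2 values, 1 row per gene or transcript. The submitters' notes also name Affymetrix Expression Console and Partek. Values are relative within an array, so a change of all genes in 1 direction cannot be read, and precision is limited by the number of arrays. No value column was left out (0). The microRNA arrays were not analysed here. Symbols came from RefSeq genes of GRCm38.p6, which named 19915 of 24625 rows (80.9%).

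SP and PBS samples, grouped by title, were compared with limma 3.58.1 (R 4.3.3; lmFit and eBayes, two-sided) over all rows, with Benjamini-Hochberg adjustment and a threshold of 0.05. The code was tested on simulated data. Pairs of catalytic subunits were compared by an exact permutation test. Alternatives were the methods' t-test (run as a one-way ANOVA per row), a robust prior with trend, array weights, the replicate number as a block, centred arrays, another quantile normalization, leaving out the dimmer rows, and leaving out each sample. The 37 genes and the lists were chosen with earlier results of these data known. Sample values are given for the catalytic subunits, the activator group, genes changed 2-fold, and in each structural group the 2 largest and the smallest differences. Other lists name at most their 3 largest called differences. Paaf1, Akirin2 and the markers Ly6g, Foxj1, Scgb3a2, Rtkn2, Fabp4, Ly6c2, Trac, Hba-a1 and Hbb-bt had no matched row. Promoter windows were those of RefSeq (GRCm38.p6), and figures were drawn with Python 3.11.15 and matplotlib 3.10.9.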

Additional observations from a re-analysis of the deposited data

Results flagged for a closer look

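Single samples stood apart from the other 3 of their group by Dixon's ratio in 6 of the 110 groups of 4 examined (5.45%), and chance alone flags about 1 in 20 groups. Psma6 read 10.57 in PBS replicate 4, below the other PBS samples (10.84 to 10.88). Psmc5 read 7.37 in SP replicate 3, below the other SP samples (8.09 to 8.19). Psmd6 read 9.51 in SP replicate 4, above the others (8.95 to 9.0). Psmd11 read 10.31 in SP replicate 3, above the others (10.06 to 10.09). Of the genes outside the 37, Nfe2l1 read 10.14 in SP replicate 3, below the others (10.54 to 10.62), and Faf1 read 9.44 in PBS replicate 2, above the others (9.17 to 9.21).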

How the results depend on the processing

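Of the 37 genes, 17 were called higher as deposited, 28 with centred arrays, 11 after another quantile normalization and 15 to 18 without any 1 sample. The 2 lower calls became 1 under the methods' t-test, the robust prior, the replicate block and without dim rows, 0 with centred arrays, and 0 to 3 without any 1 sample. The median difference of 0.28 was 0.56 with centred arrays, 0.18 after the quantile normalization and 0.22 to 0.30 without any 1 sample. Over all rows, 10860 were called, and 18255 with centred arrays. With the replicate block, 15 genes were higher and 1 lower, the lost calls being Psmc1, Psmd11 and Psmb3. The labels do not say whether the replicate numbers pair the samples. Same-numbered samples deviated together only in part (correlations 0.016, 0.030, 0.35 and -0.27), which cannot decide it. Among the 19 called genes, 18 kept their direction under all alternatives, the exception being Psmb3 (0.025 with centred arrays). Other differences near 0 changed sign. With centred arrays these were Psma1 (0.19), Psmb1 (0.17), Psmc5 (0.19), Psmd2 (0.096), Psmd3 (0.21), Psmd6 (0.024) and Psme3 (0.17). After the quantile normalization they were Psmb1 (0.023), Psmb2 (-0.16), Psmb5 (-0.034), Psmc4 (-0.0051), Psmc5 (0.23), Psmc6 (-0.028), Psmd1 (-0.036), Psmd14 (-0.094) and Psme4 (-0.13), and with array weights Psmc5 (0.12) and Psmc6 (-0.0022). Without any 1 sample, Psmb2 ranged from -0.0068 to 0.081, Psmc5 from -0.17 to 0.11, Psmd3 from -0.19 to 0.077, Psme3 from -0.19 to 0.0085 and Psme4 from -0.023 to 0.054. Beyond the arithmetic of centring, the cause of these changes was not tested. Taking another row per symbol gave no other value, since each of the 37 genes had 1 row.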
